A study of Mus musculus with 12 samples.

Results

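The mitosis genes, 40 of the 27373 gene names on the array, encode proteins that carry a cell through mitosis. They were followed in mouse back skin treated with MXD or N-CE. Members were chosen by gene name in the array files, and all 40 were present, with 67 probes. Each gene was represented by its brightest probe. The study shaved male C57BL/6J mice, 8 weeks old at purchase, and applied 200 µL daily of MXD (3% minoxidil), N-CE (10% cell extract of the cactus Notocactus ottonis) or VC, the vehicle of propylene glycol, ethanol and water. Skin was taken at 1W, 2W and 3W (weeks 1, 2 and 3). A group was 1 RNA pool from the whole skin of 6 mice. A treated pool and the VC pool of the same week were co-hybridized on 2 arrays, the dyes being swapped on the second. The 12 arrays therefore gave 6 comparisons of 1 pool with 1 pool, and the SDs below are between the 2 arrays, not between mice. Both treatments of a week shared a VC pool and a slide, and week and slide cannot be told apart.

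A dividing cell condenses its chromosomes, attaches each to spindle microtubules through the kinetochore, holds anaphase back with the spindle checkpoint until all are attached, and then cleaves at the central spindle. Cyclin-dependent kinase with cyclins A and B starts these steps, and destruction of cyclin B and securin by the anaphase-promoting complex ends them. In skin, cells divide in the basal epidermis and, far faster, in the matrix of the growing (anagen) hair follicle, whereas the resting (telogen) follicle divides little. Many of these genes are transcribed only in late cell cycle, through promoters that hold a CCAAT box and a cell cycle homology region (CHR).

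The promoters are described first, and no link between their sequence and the folds below was tested. RefSeq promoters on GRCm38.p6 were found for 34 of the 40 genes, 36 in number, and those of Aurkb, Ccna2, Foxm1, Incenp, Kif20a and Tpx2 were not in the table used. Both strands were searched for the CHR (TTTGAA), its variant TTCGAA and CCAAT. From 250 bases before to 50 after the start, 28 of 36 promoters (77.8%) held the CHR or its variant, against 19.2% of all 32851 promoters in the table. The CCAAT letters were also in 28 of the 36 (77.8%), against 37.4% of all, and 25 (69.4%) held both, against 7.52%. Within 120 bases before the start, the CHR or its variant was in 11 promoters (30.6%), against 7.59% of all. CCAAT was there in 27 (75%), against 21.3%, and 9 (25%) held both, against 1.62%. In the same bases, 2 or more CCAAT copies were found in 14 promoters (38.9%), against 4.6% of all. Ect2 and Prc1 each count with 2 promoters, whose windows overlap. The 120 bases of Aurka, Kif2c, Pttg1 and both Ect2 promoters lie wholly within the annotated span of the gene. Some others overlap that span in part, Mki67 by 71 bases. The windows below run over those 120 bases on the gene's strand, 5′ to 3′, for Top2a, Kif11 and Cdc20, the highest genes of MXD 2W by the mean of its arrays, for Cenpe, the one gene called in 3 comparisons by its representing (brightest) probe, for Cdk1, Ube2c and Ccnb2 of the mitotic entry and exit machinery, and for Bub1, whose probes disagreed. Capitals mark CHR, variant and CCAAT letters on either strand (TTCGAA reads alike on both, and no motif holds another).

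Top2a, chr11:99024190-99024309, minus strand: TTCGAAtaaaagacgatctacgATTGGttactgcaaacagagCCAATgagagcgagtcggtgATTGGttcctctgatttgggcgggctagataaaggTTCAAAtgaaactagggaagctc
Kif11, chr19:37376262-37376381, plus strand: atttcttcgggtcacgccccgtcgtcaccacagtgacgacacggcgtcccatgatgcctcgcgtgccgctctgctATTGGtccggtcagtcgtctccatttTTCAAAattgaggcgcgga
Cdc20, chr4:118437344-118437463, minus strand: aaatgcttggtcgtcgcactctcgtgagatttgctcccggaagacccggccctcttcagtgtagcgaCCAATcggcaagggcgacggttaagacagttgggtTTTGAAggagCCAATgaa
Cdk1, chr10:69352913-69353032, minus strand: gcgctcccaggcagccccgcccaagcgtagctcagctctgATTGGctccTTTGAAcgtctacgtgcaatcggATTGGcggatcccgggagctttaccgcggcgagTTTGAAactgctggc
Ube2c, chr2:164769809-164769928, plus strand: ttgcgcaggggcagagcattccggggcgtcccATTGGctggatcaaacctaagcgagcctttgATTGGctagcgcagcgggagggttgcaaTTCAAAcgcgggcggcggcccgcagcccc
Ccnb2, chr9:70421555-70421674, minus strand: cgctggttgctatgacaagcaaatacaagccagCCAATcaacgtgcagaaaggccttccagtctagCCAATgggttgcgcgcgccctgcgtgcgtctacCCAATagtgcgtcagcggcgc
Cenpe, chr3:135212443-135212562, plus strand: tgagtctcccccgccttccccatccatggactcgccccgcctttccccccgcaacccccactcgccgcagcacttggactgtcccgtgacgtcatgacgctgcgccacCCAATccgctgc
Bub1, chr2:127831860-127831979, minus strand: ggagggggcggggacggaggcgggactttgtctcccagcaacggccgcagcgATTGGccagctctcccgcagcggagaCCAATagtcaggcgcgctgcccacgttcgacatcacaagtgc

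Top2a, Kif11, Cdc20, Cdk1 and Ube2c held both kinds of letters in these windows, Ccnb2 and Bub1 held CCAAT copies alone, and Cenpe held 1 CCAAT. These windows were picked, and over all 36 promoters 9 (25%) held both kinds there. Among those not shown, Anln, Birc5, Mad2l1, Ndc80, Nuf2, Nusap1 and Pttg1 held neither. A match describes the letters and is not evidence that a factor binds there.

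In 3 of the 6 comparisons the arrays of the dye swap ordered the genes alike, with a correlation across genes of 0.67 in MXD 1W, 0.78 in N-CE 1W and 0.64 in MXD 2W. It was -0.62 in N-CE 2W, 0.22 in MXD 3W and 0.03 in N-CE 3W, so in those 3 comparisons the ranking of single genes was not held by the second array. The same VC pool was measured on the MXD arrays and on the N-CE arrays. Its median log2 difference for these genes was -0.03 at week 1, 0.18 at week 2 and 0.16 at week 3 (all probes -0.02, 0.07 and 0.06). It compares single channels between arrays, whereas the folds are ratios within an array, so it is only a rough guide to technical size. With the processed signals of the software the week 2 value was 0.42, where all probes gave 0.32. Of the 40 genes, 39 were measured (well above background in both groups) in all 6 comparisons. Kif2c, a microtubule depolymerase, was measured in 3. Its bounds were at least 1.02-fold lower in N-CE 1W and at least 1.11-fold higher in MXD 2W, and in MXD 3W no fold could be given.

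The mitosis genes were lower in N-CE than in VC skin at week 1 and higher in MXD than in VC skin at week 2. In N-CE 1W the median log2 fold was -0.96 ± 0.02 (SD of the medians of 2 arrays), 0.514 of the VC level, and 31 of 39 measured genes were called lower, with none higher. A call needed a P under 0.01 on both arrays from the error model of the scanner software, with both log ratios on the same side of 0, and a mean fold of over 1.5 or under 0.75. Over all measured probes 2.15% were called lower and 0.465% higher in that comparison, and the median was 0.03. In MXD 2W the median was 0.85 ± 0.06, 1.81-fold, and 29 of 39 were called higher with none lower, against 6.1% of all probes called higher and 8.91% called lower. The same 28 genes were called in both. By the representing probes, 1 gene was called in the remaining comparisons. It was Cenpe, the kinesin that carries chromosomes to the spindle equator, called higher in MXD 1W.

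The median log2 fold was also above 0 in the other comparisons, at 0.39 ± 0.05 in MXD 1W, 0.33 ± 0.06 in MXD 3W, 0.25 ± 0.06 in N-CE 2W and 0.28 ± 0.03 in N-CE 3W. In MXD 1W, 35 of 40 genes lay above 0, in MXD 2W 36 of 39, in MXD 3W 36 of 39, in N-CE 2W 38 of 40 and in N-CE 3W 38 of 40, while in N-CE 1W 2 of 39 did. Over all measured probes, 49%, 54.1%, 51.2%, 50.9%, 51.4% and 55% respectively lay above 0. The share of all probes called higher and lower was 1.01% and 1.16% in MXD 1W, 0.22% and 0.256% in MXD 3W, 0.104% and 0.0777% in N-CE 2W, and 0.242% and 0.211% in N-CE 3W. No mitosis gene was called lower in MXD 1W, and none was called in either direction in MXD 3W, N-CE 2W and N-CE 3W. The medians of N-CE 2W and N-CE 3W stand beside differences of 0.18 and 0.16 between VC channels of those weeks. Those differences are between arrays, an unlike measure to a fold within an array.

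**Figure D1:**
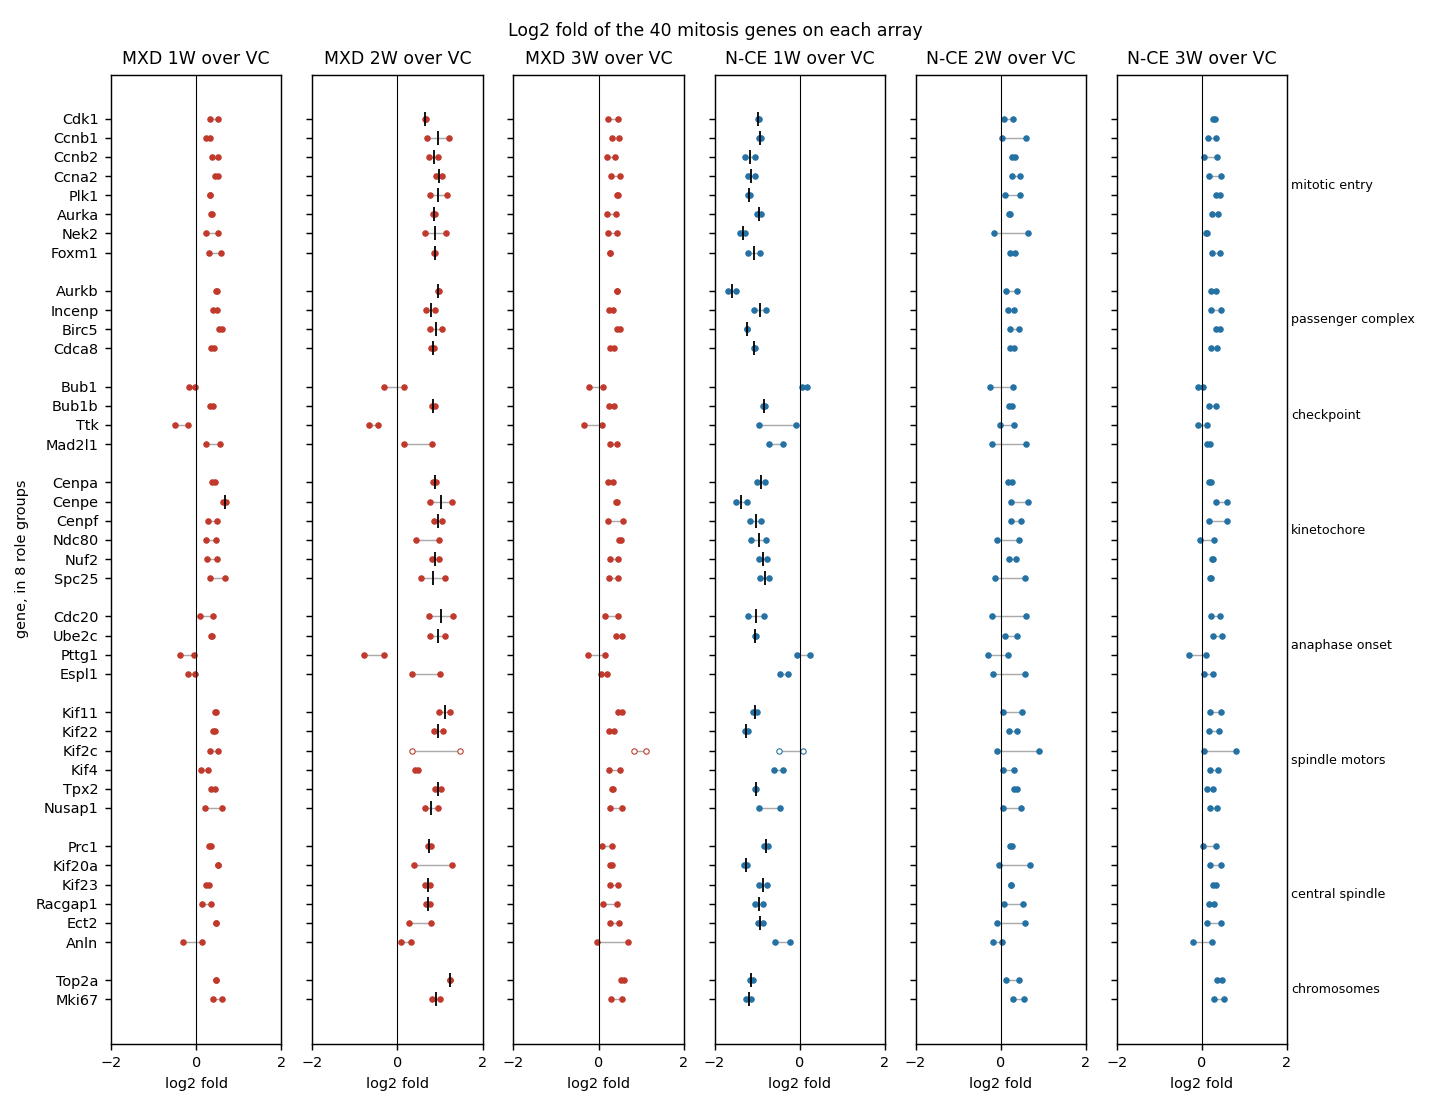
Log2 fold of each mitosis gene over VC on the 2 arrays of each comparison (points joined by a line), by role group. A black tick marks the mean of a called gene, and open points a gene not above background in one or both groups. In N-CE 1W 31 genes were called lower and in MXD 2W 29 were called higher.

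Genes of mitotic entry moved as a group, with all 8 called lower in N-CE 1W (median log2 fold -1.10) and all 8 called higher in MXD 2W (0.88). Cdk1, the kinase that starts mitosis, gave -0.98 and -0.96 on the 2 arrays of N-CE 1W and 0.66 and 0.65 in MXD 2W. Its partner cyclin Ccna2 gave -1.06 and -1.22 in N-CE 1W and 1.04 and 0.91 in MXD 2W, the largest mean of this group there. In each case both arrays lay on the same side of 0 with a gap to it wider than the gap between them. Ccnb1 and Ccnb2, the B cyclins, had a mean of -0.93 and -1.17 in N-CE 1W and 0.95 and 0.85 in MXD 2W. Nek2, a centrosome kinase, gave -1.39 and -1.29 in N-CE 1W and 0.64 and 1.13 in MXD 2W. Its size in N-CE 1W depended on the background correction, with a mean of -0.82 by normexp and loess, another correction and normalization of the same spots. Plk1 and Aurka, the kinases of centrosome maturation, and Foxm1, the transcription factor of late cell cycle genes, were likewise called in both, with -1.19, -0.96 and -1.06 in N-CE 1W and 0.96, 0.86 and 0.88 in MXD 2W.

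The chromosomal passenger complex, whose kinase Aurkb corrects wrong attachments, had 4 of 4 genes called in both comparisons. Aurkb lay at -1.50 and -1.68 in N-CE 1W and at 0.95 and 0.97 in MXD 2W. It was the lowest of all in N-CE 1W by the software's log ratios, but by normexp and loess its mean was -1.01 and Cenpe was lowest, at -1.25. Over the other comparisons it gave 0.47 and 0.48 in MXD 1W, 0.43 and 0.43 in MXD 3W, 0.13 and 0.38 in N-CE 2W and 0.33 and 0.20 in N-CE 3W. Birc5 (survivin), the subunit that docks the complex at the centromere, was second highest by the mean in MXD 1W, with 0.52 and 0.61. It gave -1.23 and -1.24 in N-CE 1W. The scaffold Incenp had means of -0.93 and 0.78 and the subunit Cdca8 (borealin) of -1.06 and 0.83 in N-CE 1W and MXD 2W.

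At the centromere and kinetochore, 6 of 6 genes were called lower in N-CE 1W and 5 of 6 higher in MXD 2W. Cenpe gave -1.23 and -1.50 in N-CE 1W, 0.71 and 0.63 in MXD 1W, 0.76 and 1.27 in MXD 2W, 0.44 and 0.40 in MXD 3W, 0.25 and 0.63 in N-CE 2W, and 0.59 and 0.33 in N-CE 3W. Its mean was the highest of the measured genes in MXD 1W, also by normexp and loess, at 0.63. In N-CE 2W and N-CE 3W its mean was highest as well, but the order differed by array. In N-CE 2W Cdc20 was highest on the first array, at 0.59, and Kif2c on the second, at 0.90. In N-CE 3W Cenpe led the first array. On the second, Kif2c (0.81), Mki67 (0.53) and Top2a (0.46) lay above it. Ndc80, which binds the microtubule end, was the one kinetochore gene not called in MXD 2W (0.44 and 0.98). In MXD 3W it gave 0.52 and 0.48, with a mean of 0.30 by normexp and loess. Cenpa, the histone of centromeric chromatin, Cenpf, and Nuf2 and Spc25 of the Ndc80 complex had means from -1.03 to -0.82 in N-CE 1W and from 0.84 to 0.95 in MXD 2W.

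By the representing probes, 1 of 4 spindle checkpoint genes was called lower in N-CE 1W and 1 of 4 higher in MXD 2W. That count depends on the probe, since the other probe of Bub1 was called in both (next paragraph) and that of Ttk was dim. Bub1b (BubR1), a subunit of the checkpoint complex that inhibits Cdc20, was called in both comparisons, at -0.80 and -0.87 in N-CE 1W and 0.88 and 0.81 in MXD 2W. Mad2l1, which also inhibits Cdc20, gave -0.72 and -0.39 in N-CE 1W and 0.15 and 0.82 in MXD 2W and was not called. Ttk, the kinase that starts checkpoint signalling, gave -0.50 and -0.19, -0.67 and -0.45, and 0.08 and -0.34 at MXD weeks 1, 2 and 3. These were the lowest means of the MXD comparisons, but by normexp and loess they were -0.05, -0.09 and -0.04, and Pttg1 was then lowest at -0.22, -0.54 and -0.05. It has 1 probe on the array, which was dim, above background in 18 of 24 channels. The probe gave -0.08 and -0.94 in N-CE 1W, and Ttk was called nowhere.

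Bub1, the kinase that recruits the checkpoint to the kinetochore, depended on the probe. Its brighter probe (mm9 chr2:127626326-127626385) stayed between -0.32 and 0.29 on all 12 arrays and was called in no comparison. The dimmer probe (chr2:127626988-127627047) gave 0.61 and 0.79 in MXD 1W, 0.73 and 1.34 in MXD 2W and -1.39 and -1.22 in N-CE 1W, all 3 of them calls in the direction of the other mitosis genes. Both probes were well above background. The array files assign them to different RefSeq transcripts, both of which the RefSeq table places in Bub1. For Anln, an actin binder of the cleavage furrow, the brighter probe gave 0.10 and 0.32 in MXD 2W and a second probe 0.84 and 0.97, a call. In all, 90 pairs of a second probe and the representing probe could be compared in the same comparison, of which 10 had opposite signs, 9 had a call on one side alone and 0 were called in opposite directions.

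**Figure D2:**
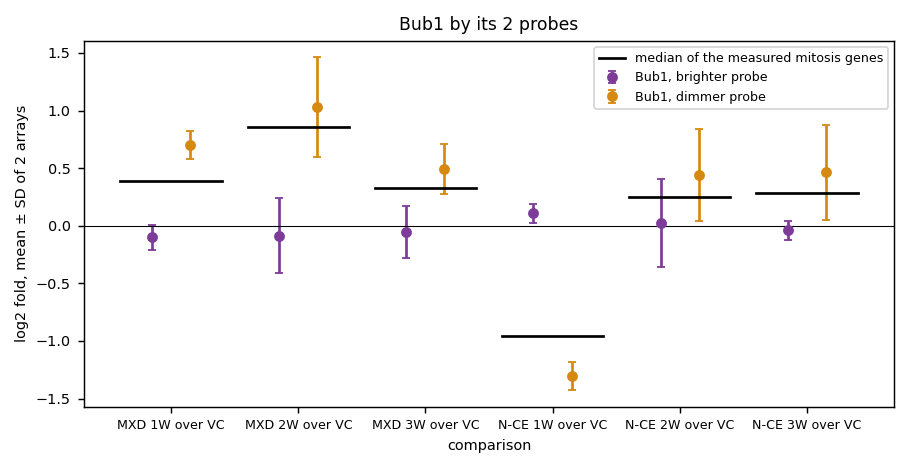
Log2 fold of Bub1 over VC by its 2 probes (mean ± SD of 2 arrays) in each comparison, with the median of the measured mitosis genes as a black line. The dimmer probe lies at -1.30 in N-CE 1W and 1.03 in MXD 2W, and the brighter one stays near 0.

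The genes of anaphase onset split. Cdc20, which activates the anaphase-promoting complex, had 1 of the 3 highest means in MXD 2W, but with a wide gap between its arrays, 1.32 and 0.74. It gave -0.84 and -1.21 in N-CE 1W. Ube2c, the ubiquitin-conjugating enzyme of that complex, gave -1.04 and -1.04 in N-CE 1W and 1.12 and 0.77 in MXD 2W. Both were called in both comparisons. Pttg1 (securin), the inhibitor of separase, gave -0.31 and -0.78 in MXD 2W, 0.25 and -0.05 in N-CE 1W, and lay below 0 in the mean at every MXD week. Espl1 (separase), which cuts the rings that hold sister chromatids, gave -0.02 and -0.19 in MXD 1W, 1.00 and 0.34 in MXD 2W and -0.27 and -0.46 in N-CE 1W. Neither was called.

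Among spindle motors and microtubule binders, Kif11, the kinesin that pushes spindle poles apart, gave 1.23 and 0.99 in MXD 2W and -1.01 and -1.10 in N-CE 1W. At the other MXD weeks it gave 0.45 and 0.46 at week 1 and 0.54 and 0.45 at week 3. Kif22, a chromosome arm kinesin, and Tpx2, an activator of Aurka on the spindle, were called in both, with means of -1.25 and -1.03 in N-CE 1W and 0.95 and 0.96 in MXD 2W. Nusap1, which bundles microtubules, was called in MXD 2W (0.64 and 0.94) but not in N-CE 1W (-0.97 and -0.46). Kif4, a chromosome-associated kinesin, gave 0.41 and 0.49 and -0.59 and -0.39 in these comparisons and was called in neither.

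For the central spindle and cytokinesis, 5 of 6 genes were called lower in N-CE 1W and 3 of 6 higher in MXD 2W. Kif20a, a central spindle kinesin, gave -1.24 and -1.30 in N-CE 1W and 0.52 and 0.51 in MXD 1W. In MXD 2W its arrays were at 0.40 and 1.29, the widest gap of its group, and it was not called. Prc1, the bundler of the midzone, Kif23 and Racgap1, the centralspindlin pair, had means from -0.95 to -0.79 in N-CE 1W and from 0.71 to 0.75 in MXD 2W. Ect2, the exchange factor that centralspindlin recruits, gave -0.98 and -0.87 and then 0.26 and 0.80, called in the N-CE comparison alone.

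Top2a, which untangles sister DNA, and Mki67, the coat of mitotic chromosomes used as a proliferation marker, were called in both comparisons. By the mean of the arrays Top2a was the highest in MXD 2W, at 1.23 and 1.24, and in MXD 3W, at 0.52 and 0.61. It led no single array of these. Cdc20 (1.32) and Kif20a (1.29) were highest on the first and second arrays of MXD 2W. In MXD 3W Cenpf (0.59) and Anln (0.69) were. Anln was the lowest of the measured genes on the first array of MXD 3W, at -0.04. Top2a gave -1.16 and -1.10 in N-CE 1W, and 0.43 and 0.11 in N-CE 2W. Mki67 gave -1.26 and -1.14 in N-CE 1W, 0.82 and 1.00 in MXD 2W and 0.29 and 0.56 in N-CE 2W.

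Over the weeks, 35 of 39 genes had their largest MXD fold at week 2, and 34 of 39 lay above 0 at all 3 MXD weeks. The 3 genes below 0 at all of them were Ttk, Pttg1 and Bub1 by its brighter probe. In N-CE, 37 of 39 had their lowest fold at week 1. As a description across genes, which share the arrays, MXD 1W and MXD 2W correlated at 0.83 over 39 genes, MXD 2W and MXD 3W at 0.81. N-CE 2W and N-CE 3W correlated at 0.80 over 40 genes, though in neither did the second array hold the ranking. N-CE 1W correlated with N-CE 2W at -0.79 and with N-CE 3W at -0.74, over 39 genes. N-CE 1W and MXD 2W correlated at -0.79, and at -0.44 over the 28 genes called in both, so much of that value rests on the genes that were not called.

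**Figure D3:**
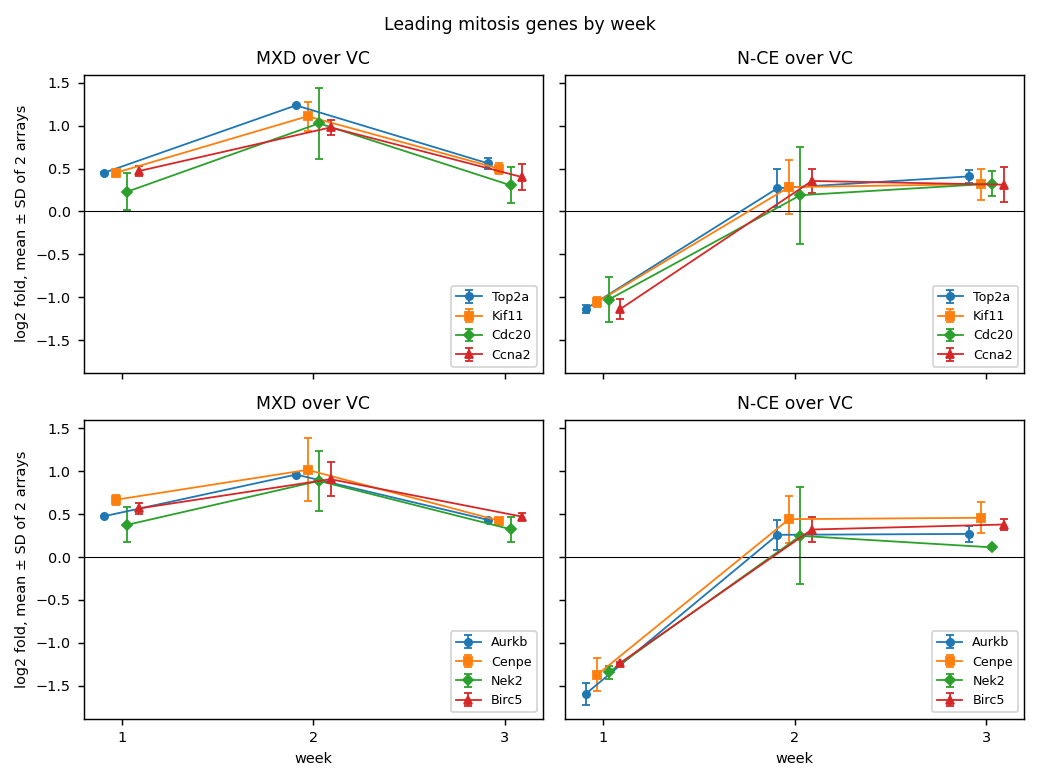
Log2 fold over VC (mean ± SD of 2 arrays) by week for 8 leading mitosis genes, MXD on the left and N-CE on the right. Top2a reaches 1.24 in MXD at week 2, and Aurkb lies at -1.59 in N-CE at week 1.

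Set against each other within a week, MXD was above N-CE for 37 of 39 genes at week 1, with a median difference of the log2 folds of 1.37, and for 36 of 39 at week 2 (0.57) and 30 of 39 at week 3 (0.06). Both MXD arrays lay above both N-CE arrays for 35 genes at week 1, 30 at week 2 and 10 at week 3, where 24.1%, 23.8% and 17.9% of all probes did so. At week 1 the largest differences were those of Aurkb, 2.07, and Cenpe, 2.04. By normexp and loess Cenpe had the largest there, 1.88. At week 2 Top2a had the largest difference, 0.97, and 0.87 by normexp and loess.

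A change common to the 3 weeks was tested with limma, the weekly folds standing in for replicates, over all probes with Benjamini-Hochberg adjustment. No probe passed an adjusted p of 0.05 for MXD (0% of 38801), for N-CE (0% of 38104) or for the difference MXD minus N-CE (0% of 39461). The lowest adjusted p among the mitosis genes was 0.642, 1.00 and 0.791 in turn by limma. Without adjustment, 34 of 40 mitosis genes were higher in MXD than in VC at p under 0.05, where 3.68% of all probes were, and 11 of 40 were higher in MXD than in N-CE, where 3.03% were. For N-CE against VC 0 of the 40 and 1110 of all probes passed that unadjusted limit. The counts of 34 and 11 both include Kif2c, which was measured in 3 comparisons only. Over probes above background in all weeks, 34 of 39 genes were higher in MXD than in VC (4.95% of all probes). Leaving out week 1, 2 or 3 gave 25 (2.78%), 30 (3.14%) and 26 (4.24%) in place of the 34. The count of 11 moved further with the setting. It was 33 with normexp and loess (2.99% of all probes higher), 32 of 39 over probes above background in all weeks (3.45%) and 0 with no block for the week (1.64%). Leaving out a week gave 32 without week 3 (6.88%), 2 without week 2 (1.79%) and 0 without week 1 (2.21%). For N-CE against VC 23 genes were higher without week 1, where 3.78% of all probes were.

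The levels in each pool were compared through single channels, for 38 mitosis genes above background in all 24 channels. Relative to VC 1W, the median log2 intensity was 0.32 in MXD 1W, -0.80 in N-CE 1W, -0.10 in VC 2W, 0.78 in MXD 2W, 0.08 in N-CE 2W, 0.21 in VC 3W, 0.59 in MXD 3W and 0.38 in N-CE 3W. The 21401 probes above background in all channels moved by a median of -0.09 to 0.00. The N-CE 1W pool was the lowest of the 9, below VC 1W for 36 of 38 genes, and the MXD 2W pool the highest. The 4 channels of the VC pool ranged from -0.26 to 0.02 at week 2 and from 0.13 to 0.32 at week 3.

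**Figure D4:**
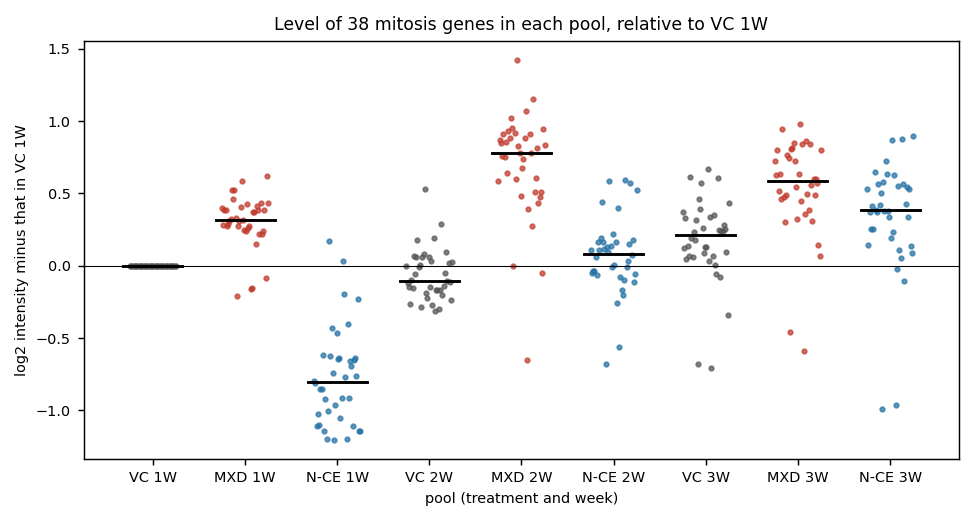
Log2 intensity of 38 mitosis genes in each pool minus that in VC 1W. Points are genes and black lines medians, at -0.80 in N-CE 1W and 0.78 in MXD 2W.

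Beyond the 40, other genes of cell division were followed in lists. Of 74 other mitosis genes, 28 of 70 measured were called lower in N-CE 1W (median -0.52) and 30 of 71 higher in MXD 2W (0.65), with none called the other way. Spag5, a spindle protein, was the lowest of them in N-CE 1W at -1.33 and Casc5, a kinetochore scaffold, the highest in MXD 2W at 1.28. For S phase and replication the counts were 7 of 23 lower (-0.52) and 5 of 23 higher (0.49), with Uhrf1, which keeps DNA methylation through replication, at -1.11 and 1.1. The G1 cyclins and their kinases had 0 of 5 called in both, with medians of -0.21 and 0.38, and the cell cycle inhibitors 0 of 7, with medians of 0.07 and 0.24.

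Markers of other cells moved in the same comparisons, and some were called in others as well. Of the hair matrix and shaft genes, 13 of 13 measured were called lower in N-CE 1W (median log2 fold -2.33) and 14 of 14 higher in MXD 2W (1.24). Their summed intensity was 26800 to 37200 in the channels of the N-CE 1W pool, where Shh was not above background, 147000 to 206000 in VC 1W, 409000 to 414000 in MXD 2W and 141000 to 290000 in VC 2W. Of the melanocyte genes, 4 of 4 were called lower in N-CE 1W (-1.80) and 4 of 4 higher in MXD 2W (1.20). They summed to 3860 to 4320 in N-CE 1W and 12400 to 12600 in VC 1W, with Tyr not above background in either, and to 35400 to 38200 in MXD 2W and 15300 to 17300 in VC 2W, where Tyr was not above background in VC. Skeletal muscle genes, 8 of 8 measured, were called lower in MXD 2W (-1.46), summing to 111000 to 172000 against 320000 to 380000 in VC 2W, while 0 of 7 were called in N-CE 1W. Basal epidermis genes were above background in all pools and had 0 of 6 called in N-CE 1W (-0.04) and 1 of 7 called lower in MXD 2W (-0.32). Of the bulge stem cell genes, 2 of 6 were called lower in N-CE 1W (-0.36), and 3 were called higher and 2 lower in MXD 2W (0.59). They summed to 18900 to 20600 in N-CE 1W and 22300 to 23800 in VC 1W, and to 18700 to 19600 in MXD 2W and 23700 to 27600 in VC 2W. The wound and hyperproliferation keratins had 0 of 4 called in N-CE 1W (-0.52) and 3 of 4 called higher in MXD 2W (0.90). Their sums were 35700 to 43100 against 49300 to 59100 and 82400 to 94300 against 37200 to 62400. In MXD 1W, where 1 mitosis gene was called, 3 of 4 melanocyte genes were called higher (0.74). Of the skeletal muscle genes, 4 of 7 were called lower (-0.73) in that comparison. Also called higher there were 2 of 4 wound and hyperproliferation keratins (1.20) and 2 of 7 myeloid genes (0.43). The hair matrix and shaft genes had 2 of 14 called higher (0.47). In MXD 3W, where no mitosis gene was called, 4 of 4 melanocyte genes were called higher (0.74).

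Some immune and dermal markers were also called in MXD 2W. Of the T cell and NK cell genes, 4 of 6 measured were called lower there (-1.03), summing to 1170 to 1240 with Cd8a not above background, against 1730 to 1880 in VC 2W. Of the myeloid genes, 3 of 7 were called lower and 1 higher (-0.34), summing to 22200 to 26300 against 36700 to 53800. Of the fibroblast genes 2 of 5 were called lower (-0.82), summing to 101000 to 134000 against 195000 to 234000, and of the adipocyte genes 2 of 4 (-0.64), summing to 40400 to 44100 against 49700 to 71500. In N-CE 1W one gene of these 4 lists was called, S100a9 of the myeloid list, at 1.09. The list medians there were 0.40 for T cells and NK cells, 0.30 for myeloid cells, 0.04 for fibroblasts and 0.31 for adipocytes. The part of all these cells in the result was not tested, and in whole skin fewer dividing cells and less RNA per cell cannot be told apart.

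**Figure D5:**
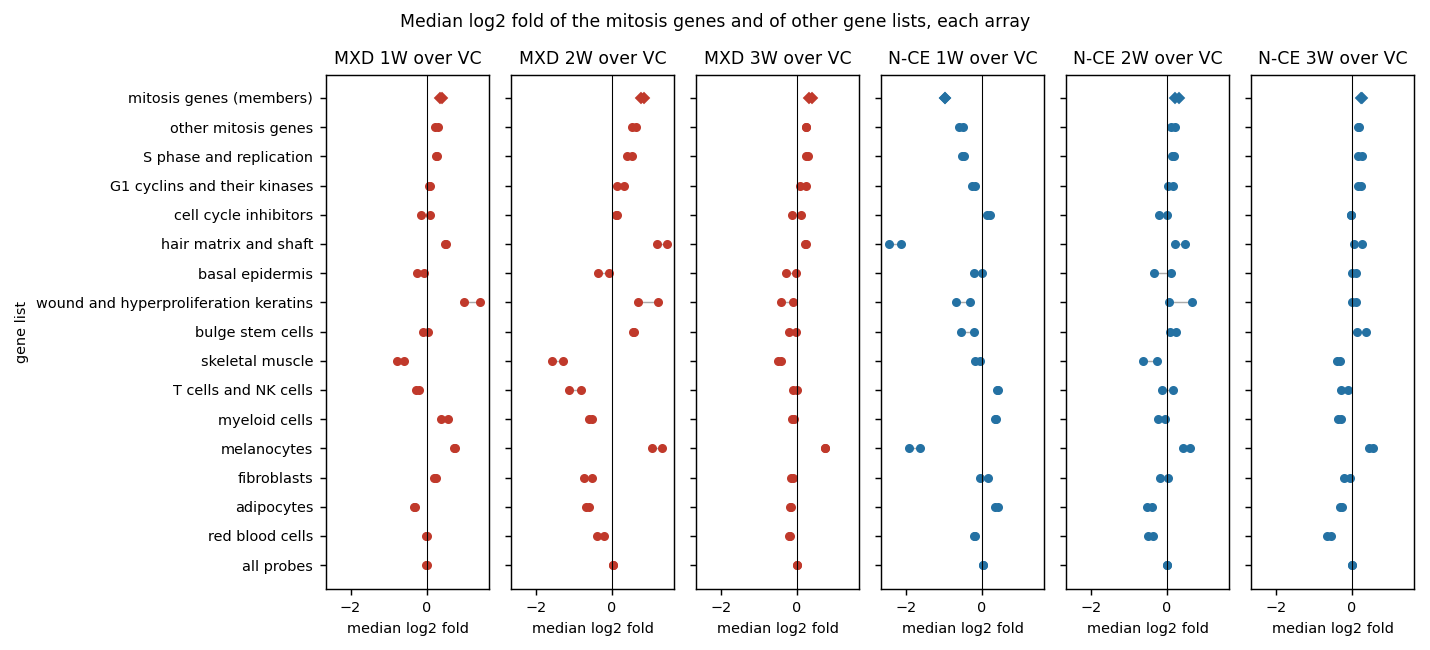
Median log2 fold over VC on each of the 2 arrays (points joined by a line) for the mitosis genes (diamonds), other gene lists and all probes. The mitosis genes lie at -0.96 in N-CE 1W between the hair matrix and shaft genes, -2.33, and the S phase genes, -0.52.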

How the data were processed

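RNA of whole skin was measured on 12 Agilent 2-colour arrays, 2 per comparison with the dyes exchanged. The authors deposited the output of Feature Extraction (version 12.0.3.1 per the file headers, 11.0.1.1 per the labels). The deposited log10 ratio compares Cy5 with Cy3, with background subtracted and dyes balanced by LOWESS. The deposited p-value describes a spot on 1 array. The deposited signal intensity of each channel is given raw and processed. The series matrix deposited by the authors equals the log10 ratio of processed intensities. Probe positions are on mm9.

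Log ratios were turned to log2 of treated over VC and averaged over the dye swap. Control and outlier spots were left out. The authors' limits of 1.5 and 0.75 on the fold were kept. A gene was measured when well above background in both groups on at least 1 of the 2 arrays each. All 40 genes were reported by role. Leading genes were, per comparison, the 3 highest and 3 lowest measured, plus the largest change of each role group in MXD 2W. Values on each array were also given for genes outside this rule, and some promoter windows shown were picked outside it. The 40 genes, the lists and the tests were chosen with earlier results of these data known. Bounds and pool levels used normexp (offset 50), loess and Aquantile. No test across mice is possible within a week. Across weeks limma 3.58.1 in R 4.3.3 was fitted over all probes, and the fit was tested on simulated data. Summaries used Python 3.11.15 with pandas 2.3.3. The number of arrays limits the precision. Alternatives are given in the closing section.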

Additional observations from a re-analysis of the deposited data

Results flagged for a closer look

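At week 1 the 2 MXD arrays and the 2 N-CE arrays lay on opposite sides of 0 for the median log2 fold of the 40 mitosis genes, with a difference of 1.35 (MXD minus N-CE). The same held for 7 of the 8 role groups, with differences of 1.64 for chromosome structure and surface, 1.6 for the chromosomal passenger complex, 1.5 for mitotic entry, 1.44 for spindle motors and microtubule binders, 1.32 for centromere and kinetochore, 1.19 for the central spindle and cytokinesis and 0.66 for the spindle checkpoint. These differences within week 1 were not tested, since each group was 1 pool and both treatments shared the VC pool.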

How the results depend on the processing

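The direction of the 6 medians held under every setting run. With normexp and loess in place of the software's correction they were 0.33 in MXD 1W, -0.78 in N-CE 1W, 0.74 in MXD 2W and 0.23 in N-CE 3W, and centring on all probes gave -0.99 in N-CE 1W. Each array alone gave -0.98 to -0.96 in N-CE 1W, 0.77 to 0.85 in MXD 2W, 0.32 to 0.40 in MXD 3W and 0.23 to 0.26 in N-CE 3W. The counts of 31 lower in N-CE 1W and 29 higher in MXD 2W stayed within 1.5 times their value in all settings run, 2 of which (normexp folds and centred folds) were added after seeing the data. All 31 and all 29 called genes kept their sign by normexp and loess, but the log2 folds of 5 (Aurkb, Nek2, Ndc80, Racgap1 and Foxm1) in N-CE 1W were over 1.5 times smaller. Small counts moved. Genes called higher in MXD 1W were 2 with every probe counted and 1 to 5 on 1 array, and on 1 array 1 to 5 genes were called higher in N-CE 2W, 1 to 2 in MXD 3W and 0 to 1 in N-CE 3W. Genes called lower in MXD 2W were 2 by fold alone and 0 to 1 on 1 array. With processed signals the VC channels differed by 0.14, 0.42 and 0.093 at weeks 1, 2 and 3. In limma, the 6 MXD arrays with the slide as a random block called 4 probes of the array, none of them a mitosis gene. The limma calls of the mitosis genes stayed at 0 in all settings run. Each comparison is 1 pool against 1 pool. Signal over background limited Kif2c, above it in 12 of 24 channels, and Ttk, above it in 18.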
